A study of Mus musculus with 16 samples.

Results

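Dcpp1, Dcpp2 and Dcpp3 are 3 neighbouring paralogous genes on mouse chromosome 17, and they are the 3 members described here among 21640 genes counted in mouse thyroid. They were selected on their 3-week log2 fold changes, which are among the highest of all genes, so the 3-week difference is a description with no test, and the mice of 6 weeks, which are other animals, carry the tests. The thyroids came from 16 wild-type (WT) male C57Bl/6J mice that began their diets at 8 weeks of age, either a control chow diet (CD) or high-fat food with sucrose water (HF+SD), and were collected after 3 or 6 weeks, with 4 mice in each of the 4 groups. Each library held the poly(A) RNA of 1 mouse, so the spread given is that between mice. All deposited mice were used, although the paper states a smaller CD group at the later time point. Libraries of the 2 time points carry different library project numbers, and no level was tested across them.

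The Dcpp genes (demilune and parotid protein) encode small secreted proteins with a jacalin-like lectin domain. They are known as products of serous demilune cells of the sublingual gland and of the parotid gland, where they are released into saliva, and are also known from the oviduct. They are not part of thyroid hormone synthesis, and the thyroid follicular cell, itself a secretory epithelium, is known for thyroglobulin and not for salivary proteins.

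The paralogs are close in sequence, which bears on how reads were shared among them. Coding sequences of the first GENCODE M21 transcript of each gene (513 bases for Dcpp1 and Dcpp2, 510 for Dcpp3) were aligned end to end. Dcpp2 and Dcpp3 were identical at 95.3% of aligned positions, Dcpp1 and Dcpp2 at 93.8%, and Dcpp1 and Dcpp3 at 93.2%. The longest stretch without a difference was 113 bases, and none of the 150-base windows of the 3 coding sequences, the length of a read, occurred exactly in a transcript of another paralog. Of 50-base windows, 35.3% in Dcpp1, 22.8% in Dcpp2 and 26.5% in Dcpp3 did. Windows outside the coding sequences were not searched. The 90-base stretch in which Dcpp1 differs most from the others shows what tells the genes apart, with capitals at bases that differ from at least 1 other paralog (coding positions 274 to 363 in Dcpp1 and Dcpp2, 271 to 360 in Dcpp3).
Dcpp1: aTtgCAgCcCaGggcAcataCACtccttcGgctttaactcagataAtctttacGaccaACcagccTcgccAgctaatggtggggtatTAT
Dcpp2: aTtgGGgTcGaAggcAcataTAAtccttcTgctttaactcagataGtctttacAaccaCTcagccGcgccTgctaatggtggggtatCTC
Dcpp3: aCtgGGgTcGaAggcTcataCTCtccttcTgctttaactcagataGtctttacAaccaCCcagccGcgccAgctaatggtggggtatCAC
Within these 90 bases each gene has 20 such positions. Gene models of Dcpp1 and Dcpp2 overlap in this annotation, since 1 Dcpp2 transcript begins at Dcpp1, so a read in the shared exon cannot be given to either gene. How the authors treated reads that match more than 1 gene is not given in the sources used here.

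**Figure D1:**
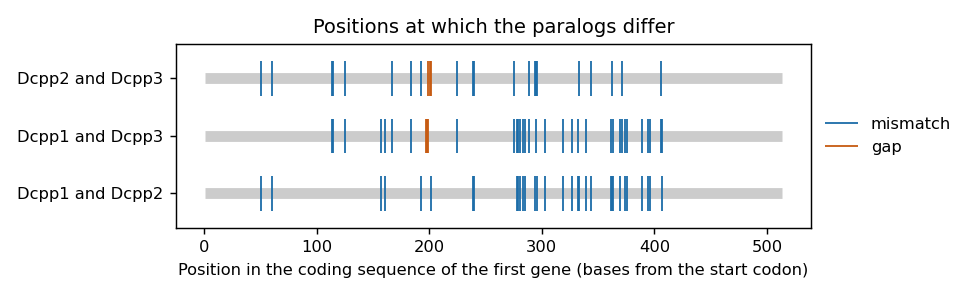
Positions at which each pair of Dcpp coding sequences differs, in bases from the start codon of the first gene named; each vertical line is a mismatch or a gap. Dcpp1 differs from the others at 32 mismatches each, and Dcpp2 from Dcpp3 at 21, with long stretches free of differences at the start and the end.

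Upstream sequences were equally close. Over the 250 bases before the transcription start (RefSeq, GRCm38.p6, all 3 genes matched), identity was 96.4% between Dcpp2 and Dcpp3, 94.9% between Dcpp1 and Dcpp3 and 93.3% between Dcpp1 and Dcpp2. The 150 bases next to the start are shown because the 3 genes moved together, with capitals at the TATAA motif. They lie on the plus strand at chr17:23880726-23880875, chr17:23898572-23898721 and chr17:23917308-23917457.
Dcpp1: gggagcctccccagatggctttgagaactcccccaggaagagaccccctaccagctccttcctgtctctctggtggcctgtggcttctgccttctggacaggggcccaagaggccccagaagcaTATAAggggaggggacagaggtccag
Dcpp2: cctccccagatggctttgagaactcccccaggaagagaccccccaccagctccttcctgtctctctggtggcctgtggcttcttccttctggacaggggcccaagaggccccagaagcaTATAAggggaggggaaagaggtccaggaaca
Dcpp3: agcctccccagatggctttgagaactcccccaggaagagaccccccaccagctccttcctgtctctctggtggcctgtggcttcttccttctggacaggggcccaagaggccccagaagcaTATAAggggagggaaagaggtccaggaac
TATAA, searched on both strands, was found in all 3, at -26 to -22 in Dcpp1, and in 22.8% of 32851 promoters of the same length. TGACG, part of a cAMP response element, stood upstream of the printed stretch in Dcpp1 and Dcpp3 and in 17.8% of promoters, and CTCAAG, a core bound by NKX2-1, in none of the 3 and in 13.3% of promoters. These are matches of letters and not sites of binding.

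Library totals ran from 30025256 to 48508653 counts, and levels are given as CPM, that is counts relative to each library's total after TMM adjustment of the totals. Thyroid identity was clear, with the 14 thyrocyte genes taking a summed 260074 to 316232 CPM in the libraries of 3 weeks and 68596 to 145823 at 6 weeks. Other tissue was present too: the 20 skeletal muscle genes summed to 784 to 188941 CPM under CD at 6 weeks and 1040 to 3696 under HF+SD, and 19 of the 20 were called lower under HF+SD there, where 6.01% of all tested genes were (1.4% at 3 weeks). In whole tissue, more cells of a type and more RNA per cell cannot be told apart.

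At 3 weeks the Dcpp genes were near the limit of detection under CD and plainly present under HF+SD. Dcpp3 (ENSMUSG00000057417.8) had 0.470, 0.197, 0.386 and 0.308 CPM in the CD mice M53, M54, M55 and M96, and 39.2, 39.2, 20.4 and 51.5 CPM in the HF+SD mice M7, M19y, M20y and M31. Dcpp1 (ENSMUSG00000096445.2) had 0.297, 0.0282, 0.103 and 0.0710 CPM under CD and 14.3, 14.9, 7.19 and 16.6 CPM under HF+SD. Dcpp2 (ENSMUSG00000096278.9) had 0.0248, 0, 0.0514 and 0.0473 CPM under CD and 1.05, 0.665, 0.646 and 2.05 CPM under HF+SD. Groups did not overlap for any of the paralogs, and M20y was lowest of the HF+SD mice for all 3 and M31 highest. The count of 0 in M54 allows up to 0.0846 CPM of Dcpp2, that is 3 counts (counting error only).

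Mean levels at 3 weeks were 0.340 ± 0.116 and 37.6 ± 12.8 CPM for Dcpp3 (CD and HF+SD, SD, n = 4 each), 0.125 ± 0.119 and 13.2 ± 4.15 CPM for Dcpp1, and 0.0309 ± 0.0237 and 1.10 ± 0.658 CPM for Dcpp2. The fitted log2 fold changes were 6.76 (SE 0.35) for Dcpp3, 6.67 (SE 0.47) for Dcpp1 and 5.00 (SE 0.64) for Dcpp2, which ranked 2, 3 and 5 among 17238 tested genes. The genes beside them in that order were Lhx1 at 7.47 and Mybpc3 at 5.65 above Dcpp2, and Lhx1os at 5.00 just below it. Summed over the 3 genes, CD libraries held 79 counts together and HF+SD libraries 8582, and the log2 fold change was 6.69 (SE 0.38). The sum does not depend on how the counted reads were split among the 3 genes. Any reads left uncounted because they match more than 1 gene would be missing from it. For reading these values, 3.25% of tested genes were called higher at 3 weeks (adjusted p under 0.05 and a log2 fold change above 1), and in 13.1% every HF+SD mouse lay above every CD mouse. All 3 members passed the filter on low counts at 3 weeks through their HF+SD libraries. The 4 CD libraries held 20 counts of Dcpp1, 5 of Dcpp2 and 54 of Dcpp3 in all.

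**Figure D2:**
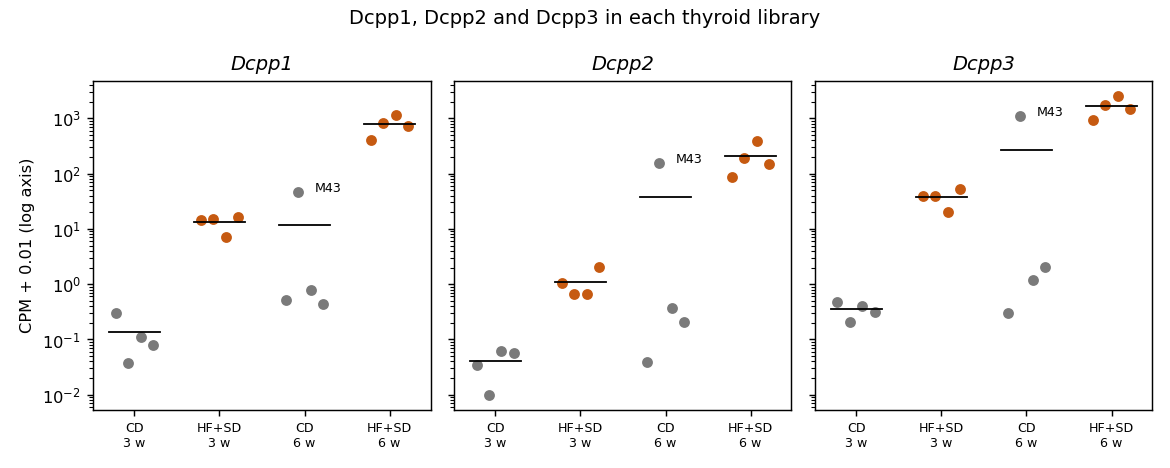
CPM of each Dcpp gene in each library, on a log axis after adding 0.01; each point is 1 mouse and each line the group mean (n = 4). HF+SD mice sit above CD mice at both time points except for 1 CD mouse of 6 weeks, M43, which reaches 1079 CPM of Dcpp3.

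At 6 weeks all 4 HF+SD mice had high Dcpp levels, and so did 1 of the 4 CD mice. Dcpp3 reached 936, 1737, 2531 and 1449 CPM in the HF+SD mice M5, M18, M34 and M35, against 0.287, 1.20 and 2.08 CPM in the CD mice M22, M45 and M48 and 1079 CPM in the CD mouse M43. Dcpp1 had 408, 838, 1139 and 736 CPM under HF+SD, 0.517, 0.780 and 0.426 CPM in M22, M45 and M48, and 45.8 CPM in M43. Dcpp2 had 87.9, 195, 387 and 151 CPM under HF+SD, 0.0287, 0.357 and 0.199 CPM in M22, M45 and M48, and 153 CPM in M43. M43 thus lay above 1 HF+SD mouse for Dcpp3 and above 2 for Dcpp2, while for Dcpp1 the groups did not overlap and the lowest HF+SD mouse was 8.89 times the level of M43.

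With all 8 mice Dcpp1 was the 1 member of 3 that passed the test at 6 weeks. Its mean was 11.9 ± 22.6 CPM under CD and 780.1 ± 302 under HF+SD (SD, n = 4 each), with a log2 fold change of 6.03 (SE 1.62, adjusted p = 0.0284, edgeR quasi-likelihood test over 18249 genes). For comparison, 6.64% of tested genes were called higher at 6 weeks, and in 13.8% every HF+SD mouse lay above every CD mouse. Dcpp3 averaged 271 ± 539 and 1663 ± 667 CPM, with a log2 fold change of 2.62 (SE 1.98, adjusted p = 0.374, edgeR), and Dcpp2 averaged 38.5 ± 76.5 and 205 ± 129 CPM, with 2.41 (SE 1.84, adjusted p = 0.378, edgeR). Dcpp2 passed the filter on low counts through its HF+SD libraries here too, as the CD mice M22 and M48 held 1 and 7 counts. The summed count gave 3.04 (SE 1.94, adjusted p = 0.290, edgeR), although its 4 HF+SD mice, at 1431 to 4056 CPM, lay above M43 at 1278 CPM. In exact two-sided permutation tests on log2 CPM, p was 0.0286 for Dcpp1 and for the sum, the smallest that 4 against 4 mice can give, 0.0571 for Dcpp3 and 0.0857 for Dcpp2.

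The values of 6 weeks changed most when the CD mouse M43 was left out. Without it the 3 remaining CD mice averaged 1.19 ± 0.894 CPM of Dcpp3, 0.574 ± 0.184 of Dcpp1 and 0.195 ± 0.164 of Dcpp2 (SD, n = 3), and the log2 fold changes were 10.41 (SE 0.88, adjusted p = 0.000918, edgeR) for Dcpp3, 10.38 (SE 0.55, adjusted p = 0.000444) for Dcpp1 and 10.01 (SE 0.88, adjusted p = 0.00101) for Dcpp2. All 3 members were then called, where 6.44% of 18453 tested genes were called higher. Each mouse was left out in turn, and this fit is singled out because the Dcpp values of M43 stood apart. Its adjusted p-values depend on that choice and are descriptions. The exact permutation p without M43 was 0.0571 for each, the smallest that 3 against 4 mice can give. The call of Dcpp1 with all mice was not firm either. It was lost when any 1 of M45, M48, M18, M34 or M35 was left out (adjusted p = 0.0510 to 0.0637, edgeR, with log2 fold changes of 5.63 to 6.06). The call was also lost with a skeletal muscle score as covariate (log2 fold change 6.12, SE 3.81, adjusted p = 0.355, edgeR). It was kept without M22 or without M5 (adjusted p = 0.0236 and 0.0487, edgeR) and with DESeq2 (adjusted p = 0.000295, Wald test). Scaling to thyrocyte genes and 1 fit of 16 libraries also kept it (adjusted p = 0.00574 and 0.00167, edgeR). So did DESeq2 size factors in edgeR and both other filters on low counts.

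M43 also stood apart in other genes. Sbpl (spermine binding protein-like), which lies next to the Dcpp cluster and was chosen after its values were seen, had 883 CPM in M43, at most 5.999 CPM in the other CD mice of 6 weeks and 0.345 to 23.7 CPM under HF+SD, where M34 held the highest value. In the HF+SD mice of 3 weeks Sbpl had 0 counts in all 4 libraries, and of the CD mice of 3 weeks M53 had 19.2 CPM and the others 0. Some products of airway and salivary glands were high in both M43 and M34. Lactotransferrin (Ltf) had 972 CPM in M43 and 144 in M34, against 1.16 to 11.6 CPM in the other 6 mice of 6 weeks. Trefoil factor 2 (Tff2) had 137 CPM in M43 and 47.8 in M34. Others were not: Bpifa1, an airway secretory protein, had 795 CPM in M34 but 57.4 in M43, within the 27.2 to 88.7 CPM of the other CD mice, and Wfdc18 had 47.7 CPM in M43 but 0.204 in M34. The CD mouse M53 of 3 weeks had 26.7 CPM of Bpifb1, 16.8 of Dmbt1 and 3.39 of Tff2. The other CD mice of 3 weeks had at most 0.0947, 0.254 and 0.0282 CPM of these. Bpifa1 in M53, at 4.06 CPM, lay within their range of 0.900 to 33.2. Summed Dcpp in M53 was 0.792 CPM. Among genes called higher under HF+SD, Slc26a4 and Muc1 in M43 lay within the range of the other CD mice. Slc26a4, the anion exchanger pendrin, was at 0.251 CPM against 0.171 to 0.258 in the other CD mice and 2.57 to 5.85 under HF+SD, and Muc1 at 2.88 against 2.79 to 3.67 and 13.5 to 18.2 CPM. Gcnt3 (0.297 against 0.0287 to 0.142 CPM) and Muc20 (2.15 against 0.975 to 1.89 CPM) were somewhat above the other CD mice and below every HF+SD mouse.

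The 21 airway gland and epithelium markers, of which 20 had counts, were highest as a sum in the same mice, through different genes. The sum was 1476 CPM in M43, of which Ltf made up 972, and 1362 in M34, of which Bpifa1 made up 795. It was 110.8 to 270.03 in the other CD mice and 71.0 to 169 CPM in the other HF+SD mice of 6 weeks, and 37.8 to 102 CPM under CD and 52.7 to 100.2 under HF+SD at 3 weeks. The HF+SD mouse M18 had the lowest sum of the 6-week libraries, 71.0 CPM, with Gp2 at 0 counts, and 2769 CPM of summed Dcpp. The first 3 markers of the list were the secretoglobins Scgb1a1, Scgb3a1 and Scgb3a2, airway secretory proteins, which reached 44.1, 59.9 and 24.3 CPM in M34, 0.157, 0.345 and 0.219 in M18, and 1.16, 15.8 and 2.44 in M43, where Scgb1a1 was the lowest of the CD mice. None of the 3 passed the test at either time point (log2 fold changes at 6 weeks 2.25, 1.24 and 1.89). With both M43 and M34 left out, an alternative chosen after the data were seen, the log2 fold changes of Dcpp1, Dcpp2 and Dcpp3 were 10.13, 9.50 and 10.13 (SE 0.70 for Dcpp2, adjusted p = 0.00350, edgeR). Leaving out M43 alone already gave 10.01 and 10.41 for Dcpp2 and Dcpp3, and leaving out M34 alone gave 1.91 and 2.35, neither called.

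**Figure D3:**
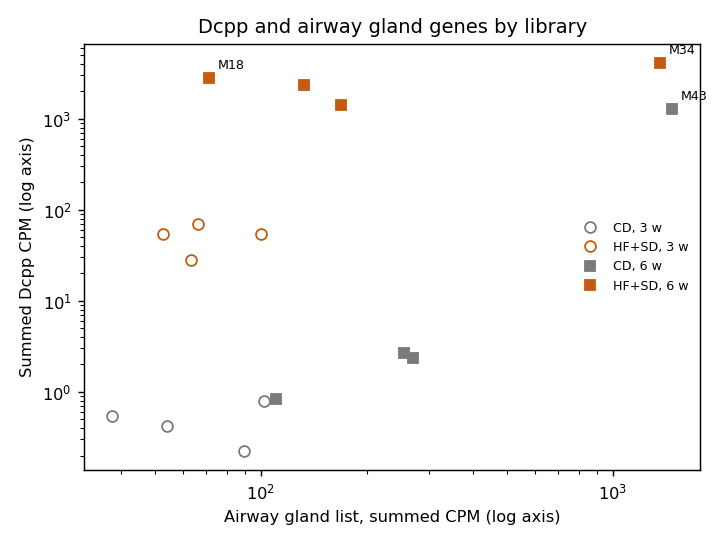
Summed Dcpp CPM against the summed CPM of the airway gland list in the 16 libraries, both on log axes; each point is 1 mouse. M43 and M34 lie at the far right (1476 and 1362 CPM of the list), and M18 combines 71.0 CPM of the list with 2769 CPM of Dcpp.

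The split of reads among the paralogs also set M43 apart. In the HF+SD mice of 6 weeks Dcpp1 took 28.1% to 31.5% of the summed Dcpp count, Dcpp2 6.14% to 9.54% and Dcpp3 62.0% to 65.4%. In M43 Dcpp1 took 3.59% (exact binomial 95% interval 3.43% to 3.74%), Dcpp2 12.0% (11.7% to 12.3%) and Dcpp3 84.4% (84.1% to 84.7%). The 4 HF+SD mice of 3 weeks had 23.6% to 27.2% of Dcpp1, 1.21% to 2.92% of Dcpp2 and 71.6% to 73.5% of Dcpp3. The summed level varied 2.83-fold among HF+SD mice of 6 weeks and 2.48-fold at 3 weeks, while the shares of Dcpp1 and Dcpp3 kept to the narrow ranges above and that of Dcpp2 varied more. M34 had the largest share of Dcpp2 in its group, 9.54% (9.38% to 9.69%). Intervals cover counting error only.

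**Figure D4:**
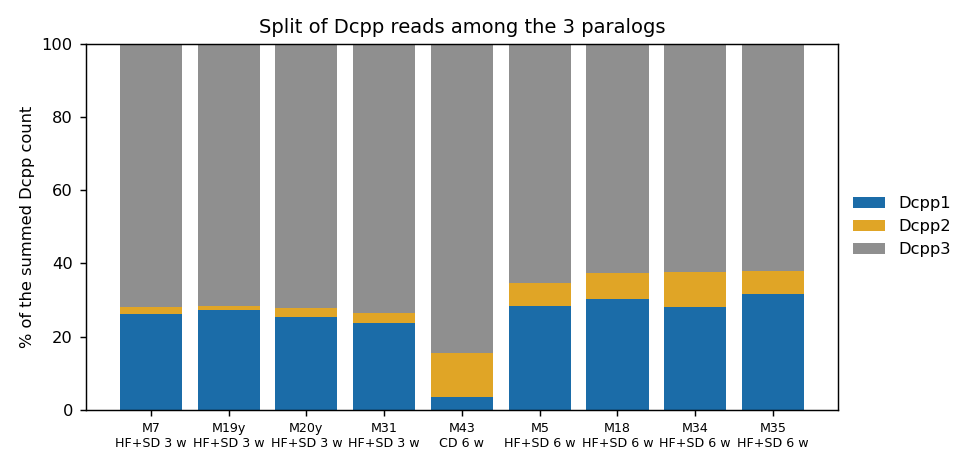
Share of the summed Dcpp count taken by each paralog in the 9 libraries with at least 1000 such counts; each bar is 1 mouse. Dcpp1 takes 3.59% in the CD mouse M43 and 23.6% to 31.5% in the 8 HF+SD mice.

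Per length of exon, Dcpp3 was the highest and Dcpp2 the lowest in all 8 HF+SD mice. At 6 weeks under HF+SD the levels per kb were 2379 ± 954 CPM for Dcpp3, 1264 ± 489 for Dcpp1 and 280.1 ± 176 for Dcpp2 (SD, n = 4), and the ranges of Dcpp3 and Dcpp1 over mice overlapped although Dcpp3 was 1.74 to 2.03 times Dcpp1 within each mouse. At 3 weeks under HF+SD they were 53.8 ± 18.4, 21.5 ± 6.72 and 1.51 ± 0.899, and within a mouse Dcpp3 was 2.32 to 2.74 times Dcpp1. In M43 Dcpp3 was 20.8 times Dcpp1, and Dcpp1 was 0.355 times Dcpp2, so their order was turned. Among 20841 genes with a length, Dcpp3 ranked 8 to 19 per kb in the HF+SD mice of 6 weeks and 18 in M43, and 370 to 1218 in the HF+SD mice of 3 weeks. The 3 genes took 0.150% to 0.447% of all counts in the HF+SD libraries of 6 weeks.

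Genes of mucous and serous secretory cells were followed as the programme to which Dcpp proteins belong in salivary glands. Of 27 listed genes 21 were tested, and 2 were called higher and none lower at 3 weeks, where 3.25% of all genes were called higher, and 5 higher and none lower at 6 weeks, where 6.64% were. The list median was 0.15 at 3 weeks and 0.12 at 6 weeks on the log2 scale, beside -0.01 over all tested genes at both. As a sum, the list was lower in every HF+SD mouse than in every CD mouse at 3 weeks (636 to 661 against 690 to 791 CPM). At 6 weeks the sums overlapped, at 697 to 881 CPM under HF+SD and 503 to 748 under CD. At 3 weeks 5 further genes had an adjusted p under 0.05 (edgeR) with a change below the fold minimum, namely Muc1 (0.99), Ehf (0.91) and Agr2 (0.58), which were higher, and Xbp1 (-0.43) and Rab3d (-0.59), which were lower. The number called higher at 6 weeks was 5 also without M43, and 5 without both M43 and M34.

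Spdef, an ETS factor of mucous and goblet cell differentiation, was at 6.86, 6.30, 1.10 and 2.93 CPM in M22, M43, M45 and M48, all CD, and at 46.1, 33.1, 18.7 and 20.6 CPM in the HF+SD mice M5, M18, M34 and M35 (log2 fold change 2.78, SE 0.54, adjusted p = 0.00836, edgeR). At 3 weeks its groups overlapped, because the CD mouse M55 had 12.4 CPM (log2 fold change 0.77, adjusted p = 0.335, edgeR). Gcnt3, an enzyme that branches mucin glycans, was at 0.0287 to 0.297 CPM under CD and 1.13 to 2.72 under HF+SD at 6 weeks (log2 fold change 3.84, SE 0.54), and rose by 2.04 (SE 0.33) at 3 weeks. The transmembrane mucins Muc20 and Muc1 rose by 2.86 (SE 0.27) and 2.39 (SE 0.18) at 6 weeks, and Muc20 by 1.35 (SE 0.13) at 3 weeks. Ehf, an epithelial ETS factor, was the fifth called gene at 6 weeks (1.40, SE 0.33, adjusted p = 0.0177, edgeR), a rise smaller in size than the -1.63 by which the median gene moves when libraries are scaled to thyrocyte genes. Creb3l1 and Creb3l4, factors of secretory cargo, gave 0.45 and 0.00 at 6 weeks and did not pass the test.

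**Figure D5:**
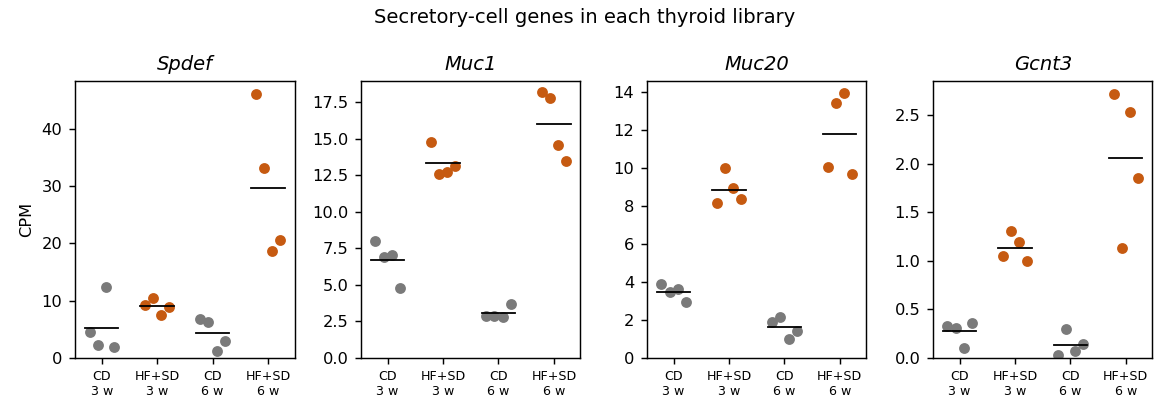
CPM of Spdef, Muc1, Muc20 and Gcnt3 in each library; each point is 1 mouse and each line the group mean (n = 4). At 6 weeks all 4 HF+SD mice lie above all 4 CD mice for each gene, M43 included (Muc1 2.88 CPM), and at 3 weeks the groups overlap for Spdef.

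Salivary gland cells were looked for by their own markers. The defining products Bpifa2, Pip and Smgc were not analysed here, and of 24 acinar and demilune genes 9 had counts. None of the 6 tested was called at 3 weeks, and 1 of 7 was called at 6 weeks, Amy1 (amylase), which fell by 2.66 on the log2 scale (SE 0.39, adjusted p = 0.00224, edgeR) while muscle genes fell too. Over the CD mice M22, M43, M48 and M45, Amy1 was at 24.9, 51.8, 71.4 and 103.9 CPM and the summed muscle list at 784, 31054, 110817 and 188941 CPM, in the same order, and the part of muscle tissue in this fall was not tested. The summed list ran from 144 to 156 CPM under HF+SD and 187 to 426 under CD at 3 weeks, and from 136 to 184 and 169 to 640 at 6 weeks, with 640 CPM in M43, of which Dmbt1 made up 385. Slc12a2 and Aqp5 made up most of the 3-week sums. Slc12a2 was at 83.3 to 97.6 CPM under HF+SD and 94.7 to 148 under CD, and Aqp5 at 28.9 to 46.5 and 44.2 to 235. Wfdc18, a secreted acinar protein, had 47.7 CPM in M43 and at most 0.211 under HF+SD at 6 weeks. Of the 19 granular duct genes of the submandibular gland, Klk1b5 was called higher and Egf and Klk1b26 lower at 6 weeks, where 7 were tested, and none of 5 was called at 3 weeks. Egf had the same order over the CD mice as the muscle list, from 7.03 CPM in M22 to 32.8 CPM in M45. Their first marker with counts, Klk1, was at 0.287 to 0.754 CPM under CD and 0.408 to 1.31 under HF+SD at 6 weeks.

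Of the airway list, 1 of 14 tested genes was called at 3 weeks and 3 of 18 at 6 weeks, all higher. Over all tested genes, 3.25% and 6.64% were called higher at these times. Dnah5, an axonemal dynein of ciliated cells, rose by 3.72 (SE 0.71) at 3 weeks and 3.50 (SE 0.59) at 6 weeks, and Krt5 and Foxj1, of basal and ciliated cells, rose by 3.10 (SE 0.65) and 1.85 (SE 0.43) at 6 weeks. Not every marker of these cells rose at 6 weeks. Tppp3 and Ccdc39, of ciliated cells, gave -0.96 and -0.80, and Trp63, of basal cells, -0.32, none of them called. Tppp3 had the same order over the CD mice as the muscle list, from 14.0 CPM in M22 to 197 CPM in M45. Sec14l3, also of the airway list, gave 1.78 (SE 1.30) and was not called, with 12.4 CPM in M34 and at most 0.376 in the other HF+SD mice. At 3 weeks Dnah5 was low, at 0 to 0.169 CPM under CD and 0.528 to 0.834 under HF+SD. At 6 weeks Dnah5 was at 7.33 CPM in M34 and 2.55 to 3.48 CPM in the other HF+SD mice, so all 4 carried it above the CD mice, which had at most 0.711. Whether the share of airway tissue had a part in the Dcpp levels of M34 was not tested.

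Lists of other neighbouring tissues showed what else was in the samples. Over all tested genes, 3.25% were called higher and 1.4% lower at 3 weeks, and 6.64% and 6.01% at 6 weeks. Tracheal cartilage had 1 gene called higher of 10 at 3 weeks and 3 of 10 at 6 weeks (Matn4, Col9a3 and Cnmd, log2 fold changes of 1.61, 1.55 and 1.35, all below the size of that -1.63 shift), while Col2a1, its defining collagen, had at most 0.297 CPM, in M43. No oesophageal gene of 2 tested was called at either time point. Of 6 parathyroid genes 1 (Gata3, -1.89) and of 4 tested thymus genes 1 (Foxn1, -3.31) were called lower at 6 weeks and none at 3 weeks. Of 8 C cell genes none was called at 3 weeks, and at 6 weeks Nkx2-2 was called higher (1.07) and Calcb lower (-1.52). The rise of Nkx2-2 was also smaller than that shift. As a sum at 6 weeks, the parathyroid list was at 2366 to 14950 CPM under CD and 683 to 2160 under HF+SD. The C cell list was at 5953 to 11101 and 4049 to 4927 CPM in the same order. At 3 weeks both sums overlapped between the groups. Skeletal muscle had 1 gene of 18 called higher at 3 weeks, Pvalb (3.50). Of 14 thyrocyte genes 5 were called higher at 3 weeks and 7 at 6 weeks, led by Slc26a4 (3.00 and 4.26), the sodium iodide symporter Slc5a5 (2.36 and 2.49) and deiodinase Dio1 (1.28 and 1.90), while Tg, thyroglobulin itself, was not called (0.04 and 0.45).

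The genes whose pattern was most like that of summed Dcpp over the 16 libraries, after the mean of each time point was taken out, were Cdc42se2 (Pearson r = 0.95), Gng2 (0.94), As3mt, Aga, Cideb, Snx31, Slc2a13, Nln, 2410015M20Rik and Slx4ip (0.92 for the last). These r are descriptions among 17021 genes, over libraries that share diet and depth, and without M43 they were 0.92 to 0.98 over 15 libraries. Snx31, a sorting nexin, was at 26.0 to 31.4 CPM in the 3 other CD mice of 6 weeks, 51.2 in M43 and 69.5 to 128.5 under HF+SD, so M43 lay between the groups. Gng2, a G protein gamma subunit, was at 9.81 to 11.4, 17.4 and 29.9 to 44.1 CPM in the same order. Gng2, Snx31 and Slc2a13 were called higher at both time points.

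When the mean of each group was taken out instead, so that diet no longer counted, the 10 most similar genes were Prox1 (r = 0.94), Degs1, Acaca, Oit1, Lonp2, Selenof, Rps3a1, Cdc42se2, Etv1 and Dhrs7 (0.82). This order rested on M43, since without it their r ran from -0.18 to 0.50 over 15 libraries. Acaca, acetyl-CoA carboxylase, was at 249 CPM in M43 and 108 to 125 in the other CD mice of 6 weeks, and Prox1 at 11.4 against 6.54 to 7.37 CPM.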

How the data were processed

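Poly(A) RNA of 16 mouse thyroids (1 library per mouse, 4 mice per group) was sequenced by the authors as 150-base read pairs. The submitters' processing notes name Trim Galore 0.6.7, STAR, DESeq2 1.36.0, R 4.1.0 and the build mm39, while for the annotation and the counting rule the entry is not given in the sources used here. The raw counts per gene deposited by the authors, with no normalization, were the input of every result. A deposited normalized table was not used. Of 21640 identifiers, 20841 were named through GENCODE M21.

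HF+SD was set against CD separately at each time point (edgeR 4.0.16, R 4.3.3), with TMM factors, filterByExpr, glmQLFit and glmQLFTest, and p-values were adjusted by Benjamini-Hochberg across the genes tested. A call needed an adjusted p below 0.05 together with a log2 fold change beyond 1 in size. The standard error is the fold change over the square root of F. Log2 CPM used a prior count of 2. Fits were tested on simulated data. Exact permutation tests used scipy 1.17.1. The chi-square of counts between mice of a group was 16.4 to 961 per gene, so mice differ beyond counting error. Exon lengths for levels per kb came from GENCODE M21 and not from the authors' annotation.

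The members and all 11 gene lists (182 entries, 136 with counts) were chosen with earlier results of these data known. Genes named were the members, the first 3 genes of each list and up to 4 called genes of each list with the largest change, and the 10 genes most like summed Dcpp in each of 2 ways. Sbpl, Ltf, Tff2, Bpifa1, Bpifb1, Gp2, Agr2, Xbp1, Rab3d, Dmbt1, Wfdc18, Tppp3, Ccdc39, Trp63, Sec14l3, Aqp5 and Slc12a2 were singled out after values were seen. Some genes of the lists are not reported here. Alternatives were DESeq2 1.42.0, its size factors in edgeR, 2 other filters on low counts, scaling to thyrocyte genes without Tg, 1 fit of 16 libraries, a muscle score as covariate, no fold change minimum and each mouse left out in turn.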

Additional observations from a re-analysis of the deposited data

Results flagged for a closer look

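Each group of 4 mice was checked for 1 mouse whose gap to the nearest other exceeded 0.829 of the group's range. Among 28 groups so checked, 9 held such a mouse. The cut-off flags about 1 in 20 groups of normally distributed values. The 9 cannot be set against that rate, since Sbpl was chosen after its values were seen and the summed Dcpp count holds the members. On the CD at 6 weeks, M43 stood apart with 45.8 CPM of Dcpp1, 153 of Dcpp2, 1079 of Dcpp3 and 1278 of their sum, with 1476 CPM of the airway gland list and 883 CPM of Sbpl. On the HF+SD at 6 weeks, M34 stood apart with 1362 CPM of the airway gland list and 23.7 CPM of Sbpl, but not for any Dcpp gene. On the CD at 3 weeks, M53 stood apart with 19.2 CPM of Sbpl, and its summed Dcpp was 0.792 CPM. Several of these values come from the same library, so they are not independent.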

How the results depend on the processing

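Every alternative kept the direction of all 3 Dcpp genes and of their sum at both time points. At 3 weeks, scaling to thyrocyte genes shifted the median gene by -1.01 and gave 5.68 for Dcpp1, 4.05 for Dcpp2, 5.77 for Dcpp3 and 5.69 for the sum, and the muscle covariate gave 4.29 for Dcpp2. Leaving out each mouse gave 6.37 to 7.53, 4.50 to 5.29, 6.57 to 6.97 and 6.46 to 7.0. No member passed the filter of 10 counts in every library at 3 weeks, and at 6 weeks Dcpp2 did not.

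At 6 weeks, leaving out each mouse gave 5.63 to 10.38 for Dcpp1, 1.91 to 10.01 for Dcpp2, 2.20 to 10.41 for Dcpp3 and 2.63 to 10.36 for the sum, the highest always without M43. The muscle covariate gave 6.12 for Dcpp1 (adjusted p = 0.355, edgeR). Leaving out M43 and M34, chosen after seeing the data, gave 9.50 for Dcpp2, 10.13 for Dcpp3 and 10.08 for the sum, all then called. The thyrocyte scaling shifted the median gene by -1.63 there and gave 4.76 for Dcpp1, 1.15 for Dcpp2, 1.37 for Dcpp3 and 1.80 for the sum.

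Called genes were 561 higher and 242 lower at 3 weeks, and 1564 and 996 without a fold change minimum. At 6 weeks they were 1211 and 1097, and 2184 and 1743 without the minimum. Scaled to thyrocyte genes they were 170 and 8800 at 3 weeks and 181 and 15177 at 6 weeks, so higher calls fell from 69.9% to 1.90% and from 52.5% to 1.18%. At 6 weeks, lower calls were 1661 with DESeq2, 517 with the muscle covariate (higher calls then 64.6%) and 288 without M43 and M34 (74.0% higher). Leaving out each mouse gave 453 to 657 higher and 170 to 319 lower at 3 weeks, and 1023 to 1532 and 445 to 1637 at 6 weeks, the fewest lower without M34 and the most without M22. The causes were not tested. No paired analysis was possible because mouse numbers are not shared between groups.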
